A study of Mus musculus with 4 samples.

Results

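The TNF superfamily comprises secreted and membrane-bound ligands and the receptors that bind them, and 8 of its genes were examined in macrophages cultured with necrotic fat: the ligands Tnf, Tnfsf9, Tnfsf10, Tnfsf12 and Tnfsf13b, and the receptors Tnfrsf1a, Tnfrsf1b and Fas. They were picked by gene symbol, with earlier results of these data known, and all 8 were found among the 17013 genes listed in the deposited expression values. The cells were bone marrow-derived macrophages of wild-type male C57BL/6 mice, matured in M-CSF and seeded on porous inserts, in an experiment on how the uptake of necrotic fat changes macrophages in osteonecrosis. All cultures received artificial necrotic bone fluid (aNBF), a freeze-thaw extract of bone and marrow, and the fat preparation lay under the inserts for 24 h. Abdominal fat was digested, frozen and thawed, and its middle layer served as the control (Con) and its top, fat-rich layer as the high-fat medium (Fat). Each medium had 2 libraries. Both groups therefore carried aNBF and material from necrotic fat, and neither was an untreated culture. The ages of the mice and whether the libraries came from separate mice or cultures are not given in the sources used here, so the p-values measure only the spread between these libraries, which may be technical. The labels give all 4 samples the same treatment text, and the groups rest on the control and high-fat names in their titles.

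TNF superfamily ligands act as trimers that draw their receptors together at the cell surface. Receptors with a cytoplasmic death domain, such as Tnfrsf1a and Fas, can start apoptosis or necroptosis. Many receptors without one, such as Tnfrsf1b, recruit TRAF adaptors that lead to NF-kB and MAP kinase signalling, to which Tnfrsf1a also leads. Macrophages are a main source of TNF in inflamed tissue, and in bone TNF favours osteoclast formation together with RANKL.

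The 250 bases before the transcription start are shown for the 2 members that were called lower in Fat, Tnf and Tnfsf10, and for Tnfrsf1b, which had the highest level of the 8 and was not called. The sequences are from RefSeq on build GRCm38.p6, whereas the submitters' processing notes name GRCm39, and 6 of the 8 members had an entry. They are written 5′ to 3′ in the direction of transcription, and capitals mark matches to 4 motifs searched on both strands: NF-kB (GGG and CC with any 5 bases between), the interferon-stimulated response element or ISRE (GAAA repeated with any 2 bases between), the STAT-binding GAS element (TTC and GAA with any 3 bases between) and the TATA box (TATAAA).
Tnf (chr17:35202008-35202257, minus strand): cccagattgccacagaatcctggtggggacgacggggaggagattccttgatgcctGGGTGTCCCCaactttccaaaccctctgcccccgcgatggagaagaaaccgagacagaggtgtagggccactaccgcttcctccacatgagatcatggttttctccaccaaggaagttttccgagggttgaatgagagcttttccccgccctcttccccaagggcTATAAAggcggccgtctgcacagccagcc
Tnfsf10 (chr3:27316827-27317076, plus strand): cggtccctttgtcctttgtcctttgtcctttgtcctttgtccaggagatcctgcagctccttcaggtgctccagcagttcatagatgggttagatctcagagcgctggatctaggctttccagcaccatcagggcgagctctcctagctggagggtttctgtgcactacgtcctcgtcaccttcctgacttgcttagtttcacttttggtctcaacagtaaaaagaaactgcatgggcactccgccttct
Tnfrsf1b (chr4:145246871-145247120, minus strand): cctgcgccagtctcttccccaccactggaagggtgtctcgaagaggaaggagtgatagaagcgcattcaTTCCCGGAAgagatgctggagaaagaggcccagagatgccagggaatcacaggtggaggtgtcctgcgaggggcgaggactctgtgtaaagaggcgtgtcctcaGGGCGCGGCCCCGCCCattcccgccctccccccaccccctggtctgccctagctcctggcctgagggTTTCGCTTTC
The Tnf window held 1 NF-kB match, GGGTGTCCCC, beginning 194 bases before the start, and a TATA box 29 bases before it. The Tnfsf10 window held no match to these 4 strings. The Tnfrsf1b window held 3 overlapping NF-kB matches, which begin 77, 76 and 71 bases before the start and run together as 1 stretch of capitals, a GAS match at 181 bases and an ISRE match, TTTCGCTTTC, at 10 bases. Of all 32851 promoter windows of this length, 45.8% held the NF-kB string, 2.98% the ISRE, 7.02% the GAS string and 12.4% the TATA box. These matches describe the letters of the window and show no binding.

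The CPM values (reads on a gene relative to the size of the library, with a further scaling by the authors) were whole multiples of the value of a single read, so reads per gene could be recovered. Library totals lay between 33573852 and 40785872 reads. Of the macrophage markers Cd68, Csf1r, Itgam, Fcgr1, Mertk and Lyz2, all 6 were expressed in every library. Their summed level was 34458 and 32519 CPM in Con and 27191 and 25675 CPM in Fat. Most of this sum was Lyz2, at 28721 and 26819 CPM in Con and 21516 and 20347 CPM in Fat, which was not called (adjusted p = 0.209, limma). Fcgr1 and Mertk were called lower, where 5.0% of all genes tested were. Csf1r was at 86.4% of its mean Con level and not called, while Cd68 was at 107% and Itgam at 105%, with overlapping groups. Of the adipocyte markers, Lpl is also made by macrophages, and the other 7 together gave 0.147 and 0.160 CPM in Con and 4.10 and 2.46 CPM in Fat. The T cell markers Cd3d, Cd3e and Cd3g summed to 4.84 and 3.84 CPM in Con and 2.60 and 2.32 CPM in Fat, and the 4 B cell markers to 23.5 and 22.5 CPM against 18.0 and 21.8 CPM. None of the 8 tested genes among 9 T, B and NK cell markers passed the limma test at an adjusted p under 0.05, and 2 of them had an unadjusted p under 0.05, both lower, while edgeR and DESeq2 called 0 of them. The 7 neutrophil markers summed to 338 and 296 CPM in Con and 294 and 298 CPM in Fat, most of it from S100a8 and S100a9. None of the 7 was called, and 2 had an unadjusted p under 0.05 in limma, both lower (12.4% of all genes tested). In 4 of them the Fat libraries lay below the Con libraries and in 0 above (26.2% and 29.4% of all genes tested). The 6 dendritic cell markers summed to 2.48 and 2.53 against 2.01 and 2.07 CPM, with Flt3, Xcr1 and Cd209a at 3 reads or fewer everywhere. The 8 fibroblast and endothelial markers summed to 529 and 553 against 445 and 582 CPM, with 1 called lower. The part of these shifts in the results on the TNF superfamily was not tested.

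Of the 8 members, 2 were called lower in Fat, Tnf and Tnfsf10, and none was called higher. Calls were made with limma on log2(CPM + 0.1) at an adjusted p under 0.05, and 9.0% of the 12470 genes tested were called, 5.0% lower and 3.99% higher. All 8 members were above the expression filter of 0.5 CPM in all 4 libraries. At an unadjusted p under 0.05, 3 members were lower and 0 higher, where 12.4% of all genes tested were lower and 11.8% higher. The tests of edgeR and DESeq2 on the recovered reads likewise called 2 lower and 0 higher, with no adjusted p from DESeq2 for Tnfsf13b. The median log2 fold change of the 8 was -0.41, beside 0.01 over all genes tested. In 6 of the 8, both Fat libraries lay below both Con libraries and in none above them. Of all genes tested, 26.2% had Fat below and 29.4% Fat above, together 55.6%, and 46.4% had a log2 fold change below 0.

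Tnf, the proinflammatory cytokine that signals through both Tnfrsf1a and Tnfrsf1b, was at 24.4 and 24.2 CPM in Con and at 16.4 and 14.8 CPM in Fat. These levels rest on 827 and 907 reads in Con and 613 and 605 in Fat. Both Fat libraries lay below both Con libraries, which differed from each other by less than 1 CPM. Fat held 64.2% of the mean Con level, a log2 fold change of -0.64 (SE 0.08, 95% interval -0.83 to -0.45, adjusted p = 0.00611, limma). Leaving out any 1 library gave -0.71 to -0.56, with adjusted p of 0.00297 to 0.0158 in limma. In bulk RNA, fewer cells that express a gene and less RNA per cell cannot be told apart.

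Tnfsf10, which encodes TRAIL, a ligand that triggers apoptosis through death receptors, had the largest change of the 8. It was at 4.75 and 4.13 CPM in Con and 1.74 and 1.15 CPM in Fat, from 161, 155, 65 and 47 reads in that order. The lower Con library was more than 2 times the higher Fat library, so the groups were well separated although the gene was weakly expressed. Fat held 32.5% of the mean Con level, a log2 fold change of -1.58 (SE 0.22, 95% interval -2.09 to -1.07, adjusted p = 0.00771, limma). Leaving out each library gave -1.86 to -1.30, with adjusted p of 0.000975 to 0.0190 in limma. Without the mean-variance trend of limma, which lets the spread of a gene follow its level, neither Tnf nor Tnfsf10 was called, each with an adjusted p of 0.0831.

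The other 3 ligands among the members were not called. Tnfsf9, a costimulatory ligand that engages Tnfrsf9 on T cells, was at 2.71 and 2.56 CPM in Con and 1.58 and 2.27 CPM in Fat, with a log2 fold change of -0.45 (95% interval -0.94 to 0.03, adjusted p = 0.237, limma). Its value was -0.21 without Fat replicate 1 and -0.70 without Fat replicate 2. Tnfsf13b, which encodes the B cell survival factor BAFF, was the least abundant member in Con per length, at 1.36 and 1.09 CPM in Con and 0.911 and 0.707 CPM in Fat. Its log2 fold change was -0.54 (95% interval -1.13 to 0.04, adjusted p = 0.241, limma), from 29 to 46 reads per library. For both genes the Fat libraries lay below the Con libraries without overlap, but the intervals reached 0.

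Tnfsf12 encodes TWEAK, a ligand linked to tissue repair and inflammation, and was by level the leading ligand. It was at 72.5 and 88.4 CPM in Con and 82.1 and 81.3 CPM in Fat. The Con libraries stood on either side of the Fat libraries, and the log2 fold change was 0.03 (95% interval -0.18 to 0.24, adjusted p = 0.890, limma). The deposited values also list the neighbouring gene Tnfsf13 and a readthrough gene, Tnfsf12Tnfsf13, that joins them. The readthrough row held 2654, 3439, 3120 and 3625 reads beside 2460, 3318, 3065 and 3332 for Tnfsf12 in Con replicates 1 and 2 and Fat replicates 1 and 2. How reads shared by these rows were counted is not given in the sources used here, so the level of Tnfsf12 is uncertain. The log2 fold changes of the readthrough row and Tnfsf13 were 0.02 and -0.05, neither called.

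**Figure D1:**
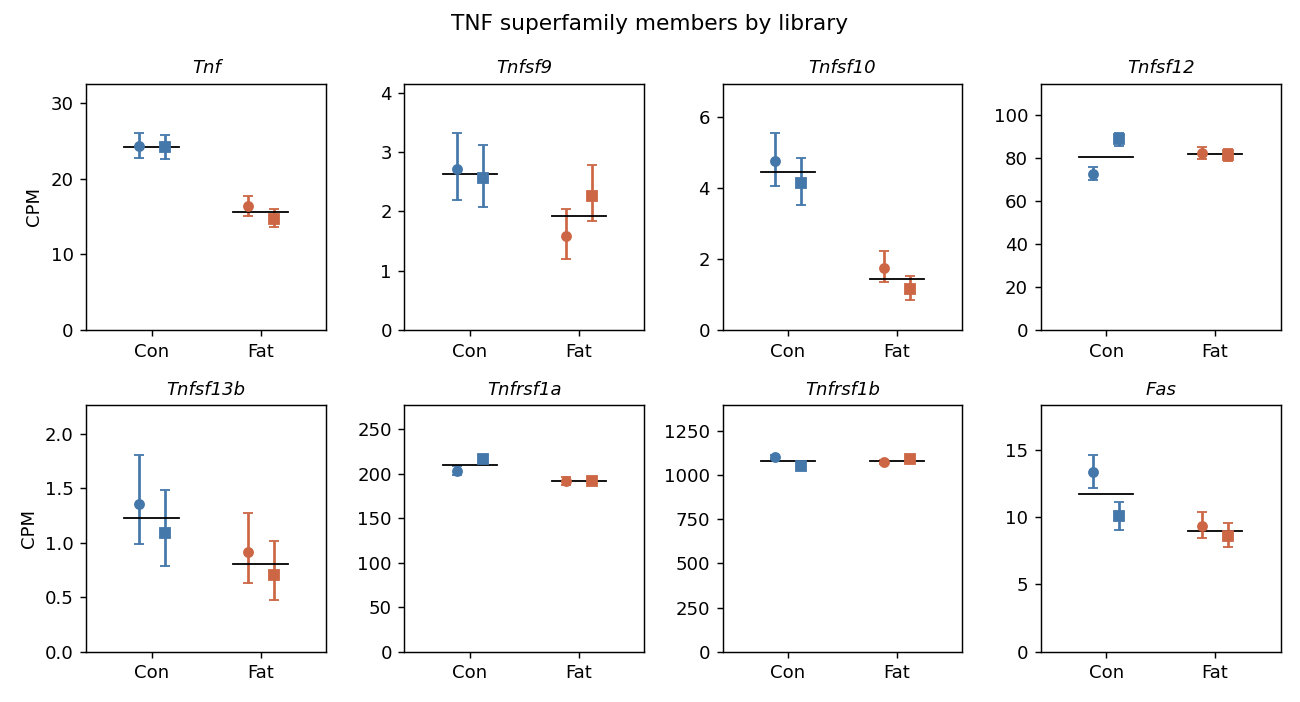
CPM of the 8 members in each library (linear axes from 0, circles for replicate 1 and squares for replicate 2), with the group mean as a black line and an exact 95% Poisson interval, which covers counting error only, as a bar. In 6 of the 8 members both Fat libraries lie below both Con libraries, and of these Tnf and Tnfsf10 were called. Over all genes tested, 55.6% do not overlap between the groups. Tnfrsf1b stayed near 1079 CPM in Con and 1082 CPM in Fat.

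The receptors among the members were not called in either direction. Tnfrsf1b (TNFR2), the TNF receptor without a death domain, was at 1104 and 1053 CPM in Con and 1076 and 1089 CPM in Fat. The Fat libraries lay between the Con libraries, and the log2 fold change was 0.00 (SE 0.07, 95% interval -0.15 to 0.16, adjusted p = 0.977, limma). Its sign, positive by a margin of 0.0048, turned under other scalings. With 2 libraries per group, the interval leaves room for a change of about 0.16 on the log2 scale in either direction.

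Tnfrsf1a (TNFR1), the death domain receptor that binds soluble TNF, was at 203 and 217 CPM in Con and 192 and 192 CPM in Fat. Both Fat libraries lay below both Con libraries, and the log2 fold change was -0.13 (SE 0.06, 95% interval -0.26 to 0.00026, adjusted p = 0.208, limma), or -0.085 without Con replicate 2. Fas, the receptor of Fas ligand, was at 13.4 and 10.05 CPM in Con and 9.38 and 8.63 CPM in Fat. The gap between the Con libraries was larger than the gap between the lower Con library and the higher Fat library. The log2 fold change of Fas was -0.36 (SE 0.14, 95% interval -0.69 to -0.03, adjusted p = 0.173, limma). Its size turned on the Con libraries, at -0.16 (adjusted p = 0.602, limma) without Con replicate 1 and -0.56 (adjusted p = 0.0262, limma) without Con replicate 2.

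Scaled for gene length as TPM, the levels of the members spanned more than 2 powers of 10. In Con the mean TPM was 475.9 for Tnfrsf1b, 211 for Tnfrsf1a, 103 for Tnfsf12, 31.8 for Tnf, 14.1 for Fas, 4.64 for Tnfsf9, 1.95 for Tnfsf10 and 1.56 for Tnfsf13b. In Fat the first 6 stood in the same order, at 487.9, 197, 107, 20.9, 11.1 and 3.47 TPM, and the last 2 changed places, with Tnfsf13b at 1.06 and Tnfsf10 at 0.647 TPM. No neighbours in either order overlapped between libraries of a group, which with 2 libraries is a description and no test.

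**Figure D2:**
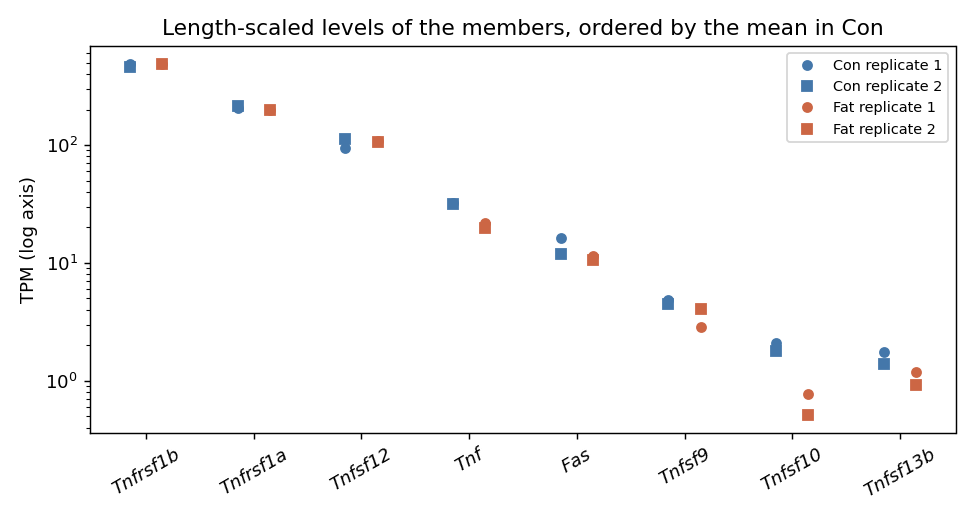
TPM (log axis) of the 8 members in each of the 4 libraries, ordered from left to right by the mean in Con. Tnfrsf1b is at 460.0 to 491.9 TPM in all libraries, and Tnfsf10 and Tnfsf13b, near 1 to 2 TPM in Con, change places in Fat.

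The balance of ligand and receptor messages was described by ratios of TPM within a library, for which no test was run. Tnfrsf1b was 15.2 and 14.7 times the level of Tnf in Con and 22.0 and 24.8 times in Fat. Tnfrsf1a was 6.40 and 6.87 times Tnf in Con and 8.95 and 9.98 times in Fat. Both ratios were higher in both Fat libraries, with Tnf, not the receptors, being the gene called. The ratio of Tnfrsf10b, the mouse TRAIL death receptor, to Tnfsf10 was 1.98 and 2.24 in Con and 4.47 and 7.81 in Fat. Overlapping ratios were found for Tnfrsf12a, the TWEAK receptor, to Tnfsf12, at 0.496 and 0.430 in Con and 0.477 and 0.640 in Fat. Tnfrsf9 to Tnfsf9 overlapped as well, at 1.13 and 0.854 in Con and 0.920 and 0.506 in Fat.

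Across the 4 libraries, the genes outside the lists with profiles nearest to Tnf, by the Euclidean distance between centred log2(CPM + 0.1) values, were Nek2, a mitotic kinase (0.0248), Cenpn, a centromere protein (0.0333), and Rad51ap1, a DNA repair factor (0.0442). The nearest to Tnfsf10 were Fam26f (0.0726) and the interferon-inducible GTPases Gbp7 (0.114) and Tgtp2 (0.119). With 4 libraries in 2 groups, this likeness is a description.

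Of 13 other ligands of the superfamily, 7 passed the expression filter. Of these, 1, Tnfsf18, was called lower and 0 higher, where 5.0% and 3.99% of all genes tested were. Tnfsf18, the ligand of the T cell costimulatory receptor GITR, was at 0.885 and 0.960 CPM in Con and 0.348 and 0.317 CPM in Fat, with a log2 fold change of -1.24 (adjusted p = 0.0371, limma). It passed the filter through its Con libraries alone, as did Tnfsf8, and a gene that passes in this way is bound to be lower in Fat. Its reads numbered 13 to 36 per library, and the call was lost on leaving out any library, with adjusted p of 0.0643 to 0.139 in limma. Tnfsf13, which encodes the B cell factor APRIL, was at 45.8 and 50.1 CPM in Con and 45.4 and 47.2 CPM in Fat, with overlapping groups. Ltb, a subunit of membrane lymphotoxin, was at 3.21 and 3.12 CPM in Con and 2.30 and 2.61 CPM in Fat (log2 fold change -0.36, adjusted p = 0.215, limma). Cd40lg, Cd70, Fasl, Tnfsf4, Tnfsf15 and Eda were under the filter and not tested. No ligand was higher at an unadjusted p under 0.05 or in edgeR or DESeq2. DESeq2 gave no adjusted p for Lta, Tnfsf8 and Tnfsf18.

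Among the other receptors, 25 were listed, Edar was not analysed here, and 20 of the remaining 24 passed the filter. Of these 20, Cd40 and Tnfrsf9 were called lower and none higher, where 5.0% and 3.99% of all genes tested were. The edgeR and DESeq2 tests called 0 higher, with no adjusted p from DESeq2 for Cd27, Tnfrsf8 and Tnfrsf11b. At an unadjusted p under 0.05, 3 were higher and 6 lower, where 11.8% and 12.4% of all genes tested were. The 3 were Tnfrsf23 (log2 fold change 0.32, adjusted p = 0.0518, limma), Tnfrsf11a (0.22, 0.0610) and Eda2r (0.39, 0.161). The Fat libraries lay above the Con libraries in 5 of the 20 and below them in 11, beside 29.4% and 26.2% of all genes tested. Cd40, through which T cells activate antigen-presenting cells, was at 9.11 and 8.80 CPM in Con and 3.51 and 3.78 CPM in Fat. Fat held 40.7% of the mean Con level, a log2 fold change of -1.27 (SE 0.12, adjusted p = 0.00297, limma). The call held with each library left out, with adjusted p of 0.00131 to 0.00429 in limma. Tnfrsf9, the receptor of the Tnfsf9 ligand, was at 5.51 and 3.95 CPM in Con and 2.63 and 2.07 CPM in Fat. Its log2 fold change was -0.97 (SE 0.20, adjusted p = 0.0289, limma). That call was lost in limma without Con replicate 1 (adjusted p = 0.114), without Fat replicate 2 (adjusted p = 0.0887), without the mean-variance trend (adjusted p = 0.118) and with TPM in place of CPM (adjusted p = 0.0531).

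Ltbr, the lymphotoxin beta receptor, and Tnfrsf14, which encodes HVEM, had the highest mean TPM over the 4 libraries among these receptors and were not called. Ltbr was at 71.5 and 76.8 CPM in Con and 67.3 and 66.3 CPM in Fat (log2 fold change -0.15, adjusted p = 0.176, limma), with values of -0.20 to -0.098 when 1 library was left out. Tnfrsf14 was at 32.6 and 25.2 CPM in Con and 22.0 and 17.3 CPM in Fat (log2 fold change -0.55, adjusted p = 0.0629, limma). Its groups did not overlap, but the libraries within a group differed widely, and the outcome turned on single libraries. The log2 fold change was -0.73 (adjusted p = 0.00934, limma) without Con replicate 2 and -0.72 (0.0161) without Fat replicate 1, but -0.37 (0.187) without Con replicate 1 and -0.38 (0.214) without Fat replicate 2. DESeq2 called it, with an adjusted p of 0.00824. Tnfrsf17, Tnfrsf19, Tnfrsf25 and Ngfr were under the filter. Of the 35 tested genes of the superfamily, Tnfsf8, Tnfsf18, Cd27 and Tnfrsf8 passed the filter through the Con libraries alone, which fixed their direction. Of the other 31, 4 were called lower and 0 higher by limma, where 5.0% and 3.99% of all genes tested were. Neither edgeR nor DESeq2 called one higher. At an unadjusted p under 0.05, 3 of the 31 were higher and 9 lower, where 11.8% and 12.4% of all genes tested were. The median log2 fold change of the 31 was -0.16, and it was -0.36 with the 4 genes included. The Fat libraries lay below the Con libraries in 17 and above them in 5 of the 31, beside 26.2% and 29.4% of all genes tested. T cell marker sums were lower in Fat as well, from 4.84 and 3.84 CPM to 2.60 and 2.32 CPM, and their part in the levels of genes that lymphocytes also express was not tested.

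**Figure D3:**
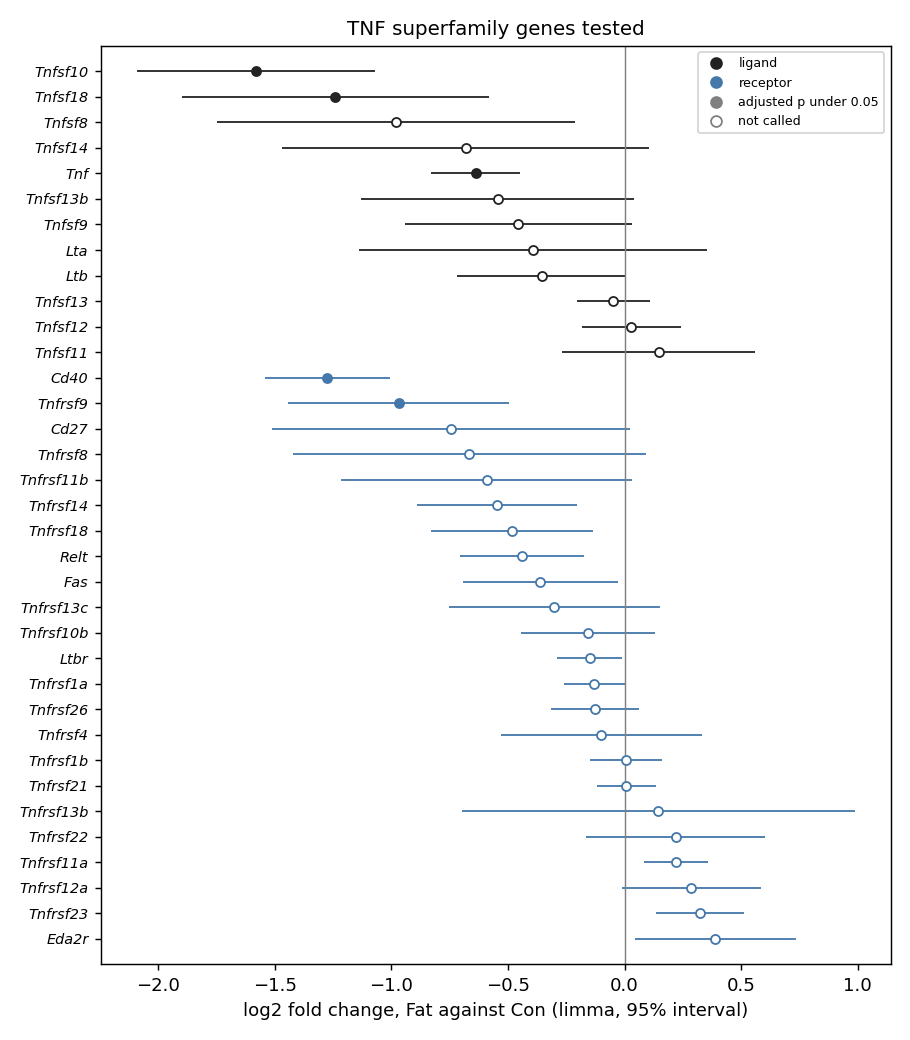
Log2 fold change, Fat against Con, with its 95% limma interval for the 35 superfamily genes tested, ligands in black and receptors in blue, with filled points for an adjusted p under 0.05. The 5 filled points, Tnfsf10, Tnfsf18, Tnf, Cd40 and Tnfrsf9, all lie left of 0.

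All 32 genes listed for proximal TNF receptor signalling were tested. Of these, 3 were called lower and 0 higher, where 5.0% and 3.99% of all genes tested were. Mlkl, the executioner of necroptosis, was at 56.0 and 53.6 CPM in Con and 42.2 and 32.9 CPM in Fat (log2 fold change -0.56, SE 0.11, adjusted p = 0.0243, limma). Birc3, which encodes cIAP2, a ubiquitin ligase of the receptor complex, was at 65.7 and 55.2 CPM in Con and 46.3 and 45.5 CPM in Fat (log2 fold change -0.39, SE 0.09, adjusted p = 0.0326, limma). Tnip1, a partner of the NF-kB inhibitor A20, was at 81.1 and 78.3 CPM in Con and 67.4 and 66.2 CPM in Fat (log2 fold change -0.25, SE 0.05, adjusted p = 0.0308, limma). In all 3 genes the Fat libraries lay below the Con libraries, at between 68.5% and 83.8% of the mean Con level.

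The median log2 fold change of the 32 was -0.03, and 2 were higher and 8 lower at an unadjusted p under 0.05 (11.8% and 12.4% over all genes tested), while edgeR and DESeq2 called 0 higher. Casp8, the initiator caspase of death receptors, was at 103 and 97.5 CPM in Con and 98.5 and 95.9 CPM in Fat. Tab2, an adaptor of the TAK1 kinase, was at 148 and 141 CPM in Con and 148 and 139 CPM in Fat. Neither separated the groups. The 3 calls were small, and none was kept when TPM was tested in place of CPM (adjusted p of 0.0565 for Mlkl, 0.0869 for Birc3 and 0.0812 for Tnip1, limma) or without Con replicate 1 (0.0512, 0.0889 and 0.115 in the same order). Without the mean-variance trend the adjusted p was 0.145, 0.158 and 0.141. Tnip1 and Birc3 were also lost without either Fat library, with adjusted p between 0.0533 and 0.150 in limma.

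The last list held 16 genes that act on the stability of the Tnf message or on the release of TNF from the membrane, all tested. Of these, 1 was called lower and 0 higher, where 5.0% and 3.99% of all genes tested were. The median log2 fold change of the 16 was 0.05. Timp3, the inhibitor of the TNF-releasing protease Adam17, fell from 35.1 and 30.5 CPM in Con to 22.9 and 23.1 CPM in Fat. Its log2 fold change was -0.51 (SE 0.08, adjusted p = 0.0139, limma), and it was called with each library left out, with adjusted p up to 0.0382 in limma, but not without the mean-variance trend (adjusted p = 0.0989). Adam17 itself was at 217 and 201 CPM in Con and 186 and 180 CPM in Fat, and was not called (log2 fold change -0.19, adjusted p = 0.0965, limma). Release of TNF was not tested. Timp3 is also made by stromal cells. Of the fibroblast markers, Dcn was called lower, at 55.2% of its mean Con level, and Pdgfra was at 71.0% and Col1a2 at 89.1%, both with Fat below Con and not called, while Col1a1 was at 105% with overlapping groups. The part of stromal RNA in the lower Timp3 was not tested.

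Zfp36, which encodes tristetraprolin, a protein that speeds the decay of the Tnf message, was at 104 and 121 CPM in Con and 125 and 149 CPM in Fat (log2 fold change 0.29, adjusted p = 0.132, limma). Mapkapk2, a kinase that holds tristetraprolin in check, was at 220.1 and 205 CPM in Con and 183 and 181 CPM in Fat (log2 fold change -0.22, adjusted p = 0.0549, limma). Neither gene overlapped between the groups and neither passed the test. For Zfp36 the log2 fold change was 0.40 (adjusted p = 0.0331, limma) without Con replicate 2 and 0.41 (0.0367) without Fat replicate 1, but 0.17 (0.386) without Con replicate 1 and 0.16 (0.487) without Fat replicate 2. Mapkapk2 was called by DESeq2 (adjusted p = 0.0331) and in limma without Con replicate 2 (adjusted p = 0.0331), and without any other library its adjusted p was 0.131 to 0.221. Of the 16 genes, 3 were higher and 5 lower at an unadjusted p under 0.05 (11.8% and 12.4% over all genes tested), and neither edgeR nor DESeq2 called one higher.

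**Figure D4:**
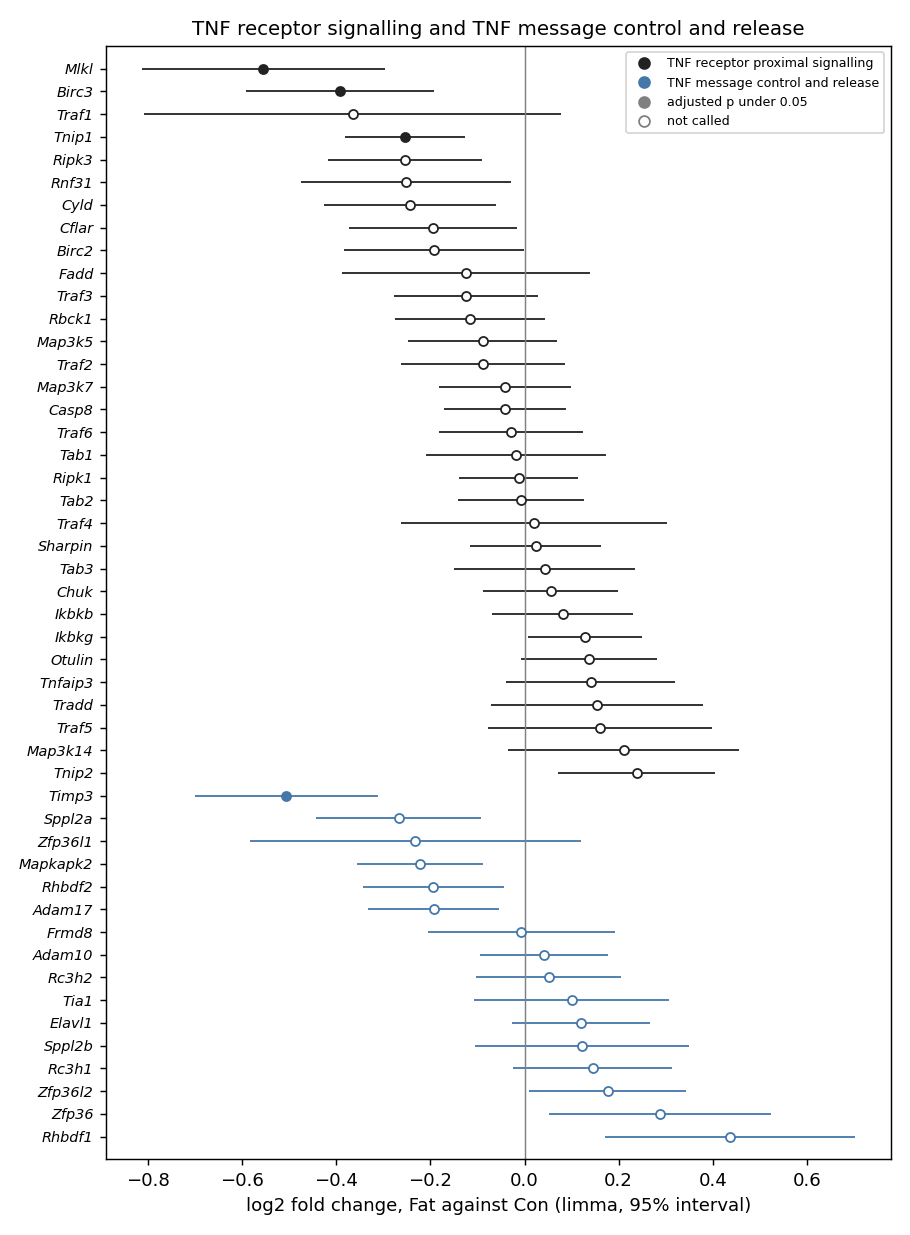
Log2 fold change, Fat against Con, with its 95% limma interval for 32 genes of proximal TNF receptor signalling (black) and 16 of TNF message control and release (blue), with filled points for an adjusted p under 0.05. The filled points are Mlkl, Birc3, Tnip1 and Timp3, with values between -0.56 and -0.25, and most other intervals cross or come near 0.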

How the data were processed

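Bulk polyA RNA was sequenced as single reads from 4 macrophage libraries, 2 of Con and 2 of Fat, grouped by the labels. The authors deposited values as CPM, in which reads are divided by library size and a further factor (0.990 to 1.01), and as TPM, which the authors also scaled for gene length. The submitters' processing notes name GRCm39, while the aligner, counter, strand setting and annotation are not given in the sources used here. Reads were recovered from the deposited CPM values, 100% of which were whole multiples of 1 read within a tolerance of 0.01. A read was worth 0.0244 to 0.0295 CPM.

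Genes entered the test at 0.5 CPM or more in 2 or more of the 4 libraries, which left 12470. Fat was compared with Con by two-sided limma 3.58.1 tests (R 4.3.3) of log2(CPM + 0.1), using the mean-variance trend, and p-values were adjusted after Benjamini and Hochberg. Fold changes on this scale understate those of weakly expressed genes. The quasi-likelihood test of edgeR 4.0.16 on the recovered reads called 490 genes higher and 648 lower, and DESeq2 1.42.0 was also run. DESeq2 gave no adjusted p for Tnfsf13b, Lta, Tnfsf8, Tnfsf18, Cd27, Tnfrsf8 and Tnfrsf11b. These genes count as not called in its results. Scripts were tested on simulated data. Python 3.11.15 with pandas 2.3.3, numpy 2.4.6 and scipy 1.17.1 wrote the tables, and matplotlib 3.10.9 the figures.

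The members and gene lists were chosen with earlier results of these data known. Named are the 8 members and, from each other list, the called genes (at most 6), the 2 with the highest mean TPM and, by name only, those under the filter. Members of marker lists are given mainly as sums. For each called member the 3 nearest profiles are named. Tnfrsf10b, Tnfrsf12a, Adam17 and single markers were added for their roles. The 3 other receptors higher at an unadjusted p under 0.05, the genes without an adjusted p from DESeq2 and Tnfsf14 are also named. Tried as alternatives were TPM values, a filter at a mean of 5 CPM, no filter, 1 CPM as pseudocount, rescaling by median ratios, a block for the replicate number, no trend, both count tests and each library left out.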

Additional observations from a re-analysis of the deposited data

How the results depend on the processing

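Tnf and Tnfsf10 kept their direction under every alternative run, and their call under all but the fit without a mean-variance trend (Tnfsf10 was not tested at a mean of at least 5 CPM). Over all genes, 498 were called higher and 624 lower. The replicate block gave 1278 and 1242, the fit without a trend 19 and 12, TPM values 425 and 366, and leaving out 1 library 216 to 519 and 313 to 612. Members called lower numbered 1 of the 5 that a mean of at least 5 CPM left, 0 without a trend, and 2 to 3 with 1 library left out. Other ligands called lower numbered 0 at a mean of at least 5 CPM, 2 with the replicate block and 0 in DESeq2 (no adjusted p for Tnfsf18). With 1 library left out, the call of Tnfsf18 was lost each time. A call without Fat replicate 1 was of another ligand, Tnfsf14, whose log2 fold change was -1.17 to -0.19 over these fits. Other receptors called higher numbered 3 with the block and 0 to 1 with 1 library left out, and those called lower 1 at a mean of at least 5 CPM, 4 with the block, 1 without a trend and 1 to 4 with 1 library left out. Signalling genes called higher numbered 1 with the block and 0 to 1 with 1 library left out, and those called lower 0 with TPM, 7 with the block, 0 without a trend and 0 to 5 with 1 library left out. Genes of message control and release called higher numbered 3 with the block and 0 to 1 with 1 library left out, and those called lower 5 with the block, 0 without a trend, 3 in DESeq2 and 1 to 4 with 1 library left out. A mean of at least 5 CPM tests fewer genes, and the cause of the other moves was not tested. Leaving out Con replicate 2 raised several counts and leaving out Con replicate 1 or Fat replicate 2 lowered several. Signs turned only near 0: Tnfrsf1b was at -0.0038 after rescaling, -0.00045 in edgeR, -0.0043 in DESeq2 and -0.029 to 0.039 with 1 library left out, Tnfsf12 at -0.11 to 0.17 and Tnfsf13 at -0.11 to 0.016 with 1 library left out, and Tab2 at 0.025 with TPM and -0.048 to 0.035 with 1 library left out. The labels' replicate numbers are not stated to mark shared mice or batches, and the deviations of libraries with the same number correlated at 0.20 over 12470 genes, so with only 2 pairs the block is an alternative. With the block, Fas had an adjusted p of 0.0123, Tnfrsf14 9.58e-07, Mapkapk2 0.00451 and Zfp36 0.000217 in limma, and no named gene lost its call. The block leaves each gene 1 degree of freedom for its own spread, so these p-values lean on a spread shared over genes. A library left out leaves 1 sample in its group, which is assumed to vary like the others. Scalings moved the median of all genes to at most 0.0435 on the log2 scale. Ligands near 1 CPM rest on few reads (29 to 46 for Tnfsf13b), and its interval of -1.13 to 0.04 includes the value of Tnf.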

Other observations

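Summed over the 18 superfamily ligands with a length-scaled value, the TPM was 210.2 and 229 in Con and 206 and 205 in Fat. Tnfsf12 and Tnfsf13 led this sum in every library, and Tnf made up 15.4% and 13.7% of it in Con and 10.7% and 9.66% in Fat. The readthrough row Tnfsf12Tnfsf13 was left out of the sum. How reads shared with it were counted is not given in the sources used here, so this sum and these shares are uncertain. The 27 receptors summed to 1115 and 1072 TPM in Con and 1065 and 1069 TPM in Fat, with Tnfrsf1b at 42.9% to 45.9% and Tnfrsf1a at 18.5% to 20.1% of the sum.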
